A study of Mus musculus with 5 samples.

Results

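The accessible chromatin around 8 cytotoxic granule genes was described in naïve CD8+ T cells, namely *Prf1*, *Gzma*, *Gzmb*, *Gzmc*, *Gzmk*, *Gzmm*, *Nkg7* and *Srgn*. A DNase-seq peak belonged to these genes when its summit lay in the body of a listed gene or within 50 kb on either side, in the mm9 assembly of the mouse genome. By this rule 79 of 56641 deposited peaks were members, 39 of 31116 in the WT list and 40 of 25525 in the dKO list. DNase-seq marks DNA that DNase I can reach in chromatin, and a peak is a stretch where cut fragments pile up over the local background.

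The cells were GFP+ TCRbeta+ naïve CD8+ T cells that were sorted from the spleens of mice 6 to 12 weeks old. Both genotypes carried hCD2-Cre, which is active in mature T cells, and the Rosa26-lsl-GFP reporter that Cre switches on. WT mice had wild-type *Tcf7* (encoding Tcf1) and *Lef1*, and dKO mice had floxed alleles of both genes. Per the methods of the study, Cre excised in 80 to 95% of cells before sorting. The GFP reporter served to select the cells in which it had acted. The labels give 3 WT and 2 dKO replicates. Per the methods the replicates of a genotype were pooled before peaks were called, so that 1 list stood for each genotype. These lists hold no spread between replicates, so no test between genotypes could be made from them. The paper itself counted reads per replicate at its merged sites and compared genotypes with edgeR, which was not repeated here.

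Cytotoxic T cells and natural killer (NK) cells kill through secretory granules. Perforin, the product of *Prf1*, forms pores in the target cell membrane, and granzymes are serine proteases that pass into the target cell, where granzyme B cleaves caspases and other substrates. Granzymes A and K have trypsin-like activity, granzyme M cuts after methionine, and granzyme C belongs to the cluster of genes next to *Gzmb*. Serglycin, the product of *Srgn*, is the proteoglycan core that holds granzymes in the granule, and Nkg7 is a membrane protein of cytotoxic granules. Naïve CD8+ T cells carry few such granules and load them after activation.

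ChrAcc sites were peaks at p under 1e-05 and q under 0.05 whose fold enrichment was 4 or more. Of the 39 WT peaks, 37 met these criteria, and so did all 40 dKO peaks. Sites of both lists were called shared when they overlapped by at least 1 bp. Each site was ranked by fold enrichment within its own list and given a percentile, in which 100 is the highest site of the list. The pileup of a site counts the fragments over its summit, and the depth-scaled pileup is the same count per 1000000 fragments of the pool, which held 83923734 fragments in WT and 62242963 in dKO. In such pools, fewer cells with an open site and a less open site in every cell cannot be told apart.

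The sequences of the promoter sites that differed between the lists are shown first, followed by the site found in 1 list alone that held a Tcf/Lef core. They were read from the mm9 genome, 5′ to 3′ on the strand of the gene, and only bases upstream of the TSS are shown for promoter sites. Capitals mark matches on either strand to ATCAAAG (the core of the Tcf/Lef motif), TGTGGTT (Runx factors), AGGTGTGA (T-box factors), TGANTCA (AP-1, a motif that reads alike on both strands) or CGGAAGT (Ets factors). The *Gzma* sequence (chr13:113891188-113891369, minus strand) is the upstream part of a site in the dKO list alone, and its capitals are a Runx match read on the opposite strand. The *Gzmb* sequence (chr14:56881098-56881336, minus strand) is the part upstream of the TSS of the site with the widest shift in rank, and it holds an AP-1 match followed by a Runx match. The *Nkg7* sequence (chr7:50692155-50692442, plus strand) precedes the TSS and holds a Runx match on the opposite strand near its 5′ end. The *Prf1* sequence (chr10:60759878-60760069, plus strand) is a dKO site upstream of a promoter site that both lists held, and it has an AP-1 match. The last sequence (chr14:56915027-56915198, minus strand) is a WT site upstream of *Gzmb* with ATCAAAG.
Gzma promoter: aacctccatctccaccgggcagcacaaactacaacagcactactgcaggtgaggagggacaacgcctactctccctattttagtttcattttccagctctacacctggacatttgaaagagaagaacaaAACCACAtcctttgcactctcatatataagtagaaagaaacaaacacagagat
Gzmb promoter: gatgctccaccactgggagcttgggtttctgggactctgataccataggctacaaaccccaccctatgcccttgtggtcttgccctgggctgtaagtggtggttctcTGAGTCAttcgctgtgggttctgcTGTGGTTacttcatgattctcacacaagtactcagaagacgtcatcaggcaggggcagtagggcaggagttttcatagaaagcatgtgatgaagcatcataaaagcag
Nkg7 promoter: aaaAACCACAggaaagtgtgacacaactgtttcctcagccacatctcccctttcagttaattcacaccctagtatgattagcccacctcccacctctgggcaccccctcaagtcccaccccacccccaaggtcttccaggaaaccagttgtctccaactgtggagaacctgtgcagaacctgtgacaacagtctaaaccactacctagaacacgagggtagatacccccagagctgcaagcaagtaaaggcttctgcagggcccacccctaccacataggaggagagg
Prf1 upstream: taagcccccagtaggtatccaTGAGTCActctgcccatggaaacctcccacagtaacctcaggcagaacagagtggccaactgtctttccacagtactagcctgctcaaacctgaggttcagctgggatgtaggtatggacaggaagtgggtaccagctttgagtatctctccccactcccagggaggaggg
Gzmb distal: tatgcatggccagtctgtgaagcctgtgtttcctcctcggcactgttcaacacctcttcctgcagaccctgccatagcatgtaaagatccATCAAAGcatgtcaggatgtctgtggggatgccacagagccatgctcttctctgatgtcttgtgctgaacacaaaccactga

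The granule loci kept most of their ChrAcc sites in both lists. Of 37 WT sites, 30 were shared and 7 had no dKO counterpart, which is 18.9% (95% Wilson interval 9.48 to 34.2), against 27.6% of all WT sites. Of 40 dKO sites, 30 were shared and 10 had no WT counterpart, or 25% (14.2 to 40.2), against 14.4% of all dKO sites. The intervals cover counting error over sites only and treat sites as independent, which sites of neighbouring windows need not be. Each includes the share over all sites of its list, for dKO only just. Of the 10 sites in dKO alone, 7 lay around *Gzma* and *Gzmk*, and without these windows 3 of 32 dKO sites and 7 of 36 WT sites were in 1 list alone.

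The granule genes differed in what their windows held. *Gzma* had 1 WT and 6 dKO sites, and *Gzmk* had 0 WT and 2 dKO sites. *Gzmm* had 7 WT and 4 dKO sites, and *Srgn* had 9 WT and 8 dKO sites. The numbers were equal for *Prf1* (6 and 6), *Gzmb* (5 and 5), *Gzmc* (3 and 3) and *Nkg7* (8 and 8), where the *Gzmb* and *Gzmc* windows overlap and together held 6 sites in each list. The neighbouring granzyme genes *Gzmd* and *Gzme* had no site in their windows, while *Gzmf*, *Gzmg* and *Gzmn* had 1 in each list and none of the 5 had a promoter site.

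**Figure D1:**
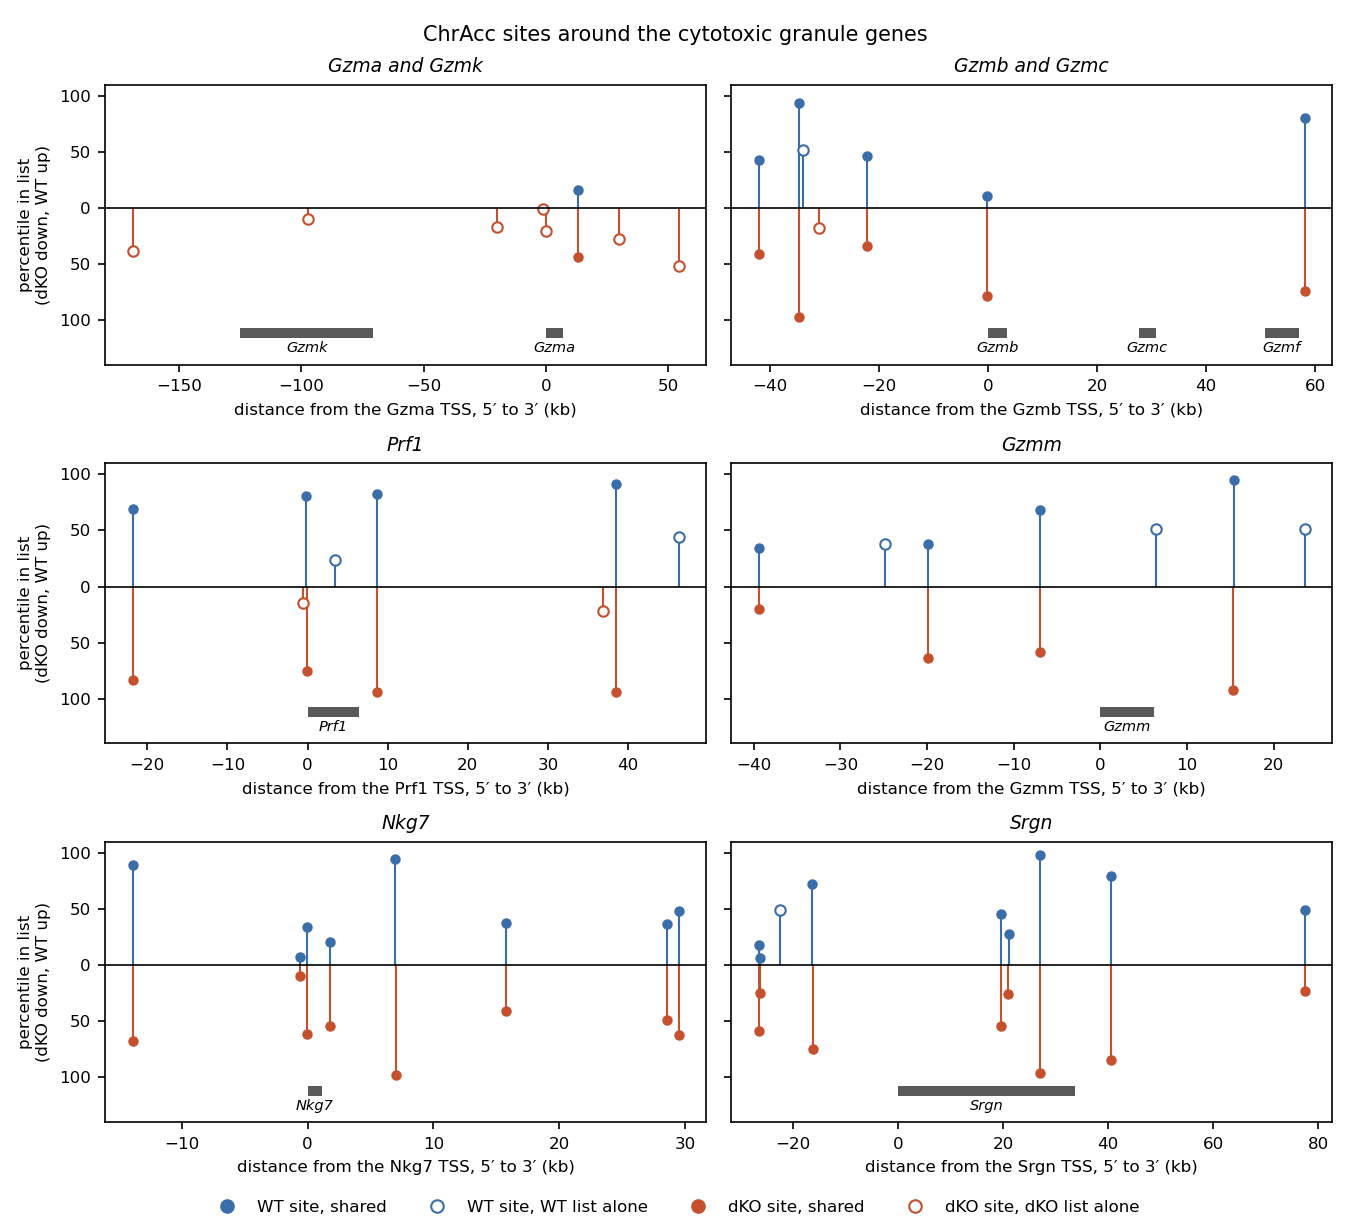
ChrAcc sites at the granule loci by the distance of the summit from the TSS of the named gene (kb), with the percentile of fold enrichment drawn upward for the WT list and downward for the dKO list. Filled points are shared sites, open points are sites in 1 list alone, and grey bars are gene bodies. The *Gzma* and *Gzmk* windows hold 7 open dKO points and 1 shared site, and the *Gzmm* window holds 3 open WT points.

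A gain of sites was the less common direction in the genome. Among 16767 protein-coding genes with a site in their window, 16.6% had more dKO than WT sites and 48.5% had more WT than dKO sites, and WT had 1.17 times the sites and 1.35 times the fragments of dKO. Against this background, 2 of the 8 granule genes had more dKO sites, 2 had more WT sites and 4 had equal numbers. A gain of at least 5 sites, as at *Gzma*, was seen for 11 genes with *Gzma* counted among them (0.0656%). A gain of at least 2 sites, as at *Gzmk*, was seen for 3.76% of genes, and a loss of at least 3 sites, as at *Gzmm*, for 9.09%, each with the named gene included. Windows of neighbouring genes share sites, so these genes are not independent. These differences depended on the criteria: with a minimum fold enrichment of 8 the gain was 1 site at *Gzma* and 0 at *Gzmk* and the *Gzmm* difference was -1, and within 10 kb they were 2, 1 and -1. The gain at *Gzmk* was also 1 site with q under 1e-10, with all deposited peaks and with the 20000 peaks of highest -log10 p, and 5 within 100 kb, and that at *Gzma* was 3 with q under 1e-10.

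**Figure D2:**
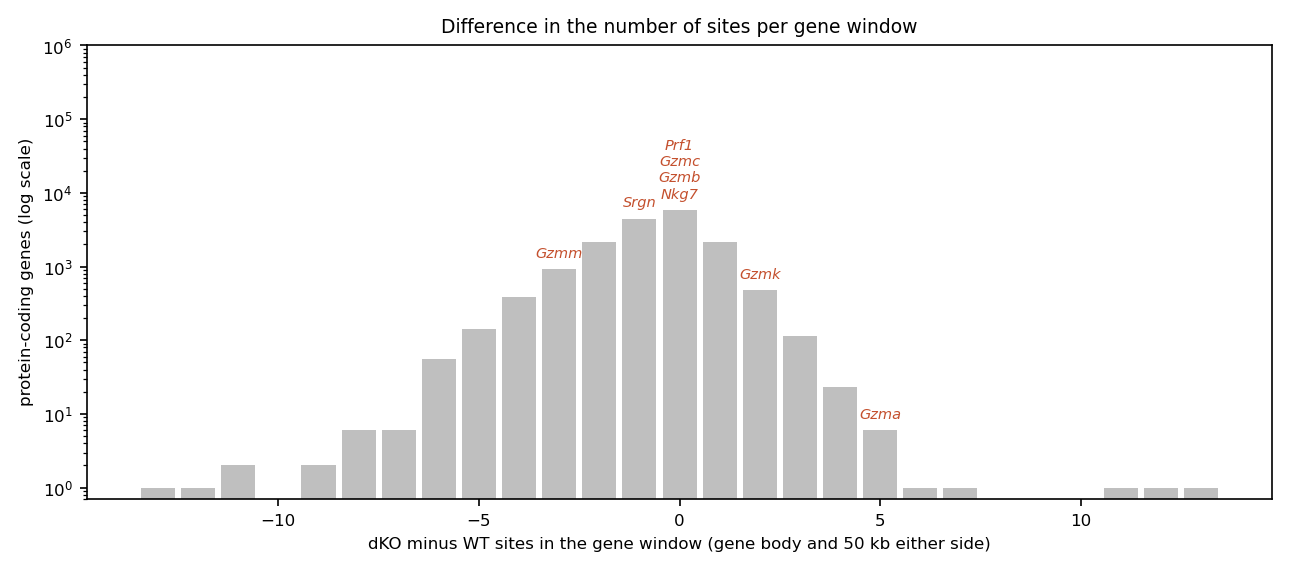
Number of protein-coding genes (log scale) by the difference in sites in the gene window, dKO minus WT, with the granule genes named above their bars. *Gzma* stands at 5 and *Gzmk* at 2, *Gzmm* stands at -3 and *Srgn* at -1, and the others stand at 0.

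Promoters were taken as 1 kb on either side of the TSS. *Prf1*, *Gzmb* and *Nkg7* had a promoter site in both lists, *Gzma* had one in dKO alone, and *Gzmk*, *Gzmm*, *Gzmc* and *Srgn* had none in either list. Of all 22380 protein-coding genes, 38.4% had a promoter site in both lists, 0.679% in dKO alone and 3.7% in WT alone. Where both lists held a promoter site, its percentile was at least 20 points higher in dKO for 2.11% of genes and at least 20 points higher in WT for 12.4%, and among the 3 granule genes it was at least 20 points higher in dKO for *Gzmb* and *Nkg7*. With a minimum fold enrichment of 8, the *Gzma* promoter site was no longer called, and *Gzmb* and *Nkg7* had a promoter site in dKO alone.

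*Prf1*, the gene for the pore-forming protein, had a strong promoter site in both genotypes. Its summit lay 155 bp upstream of the TSS in WT, with a pileup of 99 at percentile 80.5, and 119 bp upstream in dKO, with a pileup of 72 at percentile 75.1. The depth-scaled pileup of dKO was 0.981 times that of WT (exact 95% interval from counting error alone, 0.714 to 1.34), so no difference was detectable at this depth, and by percentile of pileup the site ranked 0.637 points higher in dKO. Further upstream, 563 bp from the TSS, the dKO list had a weak site of its own with a pileup of 32 at percentile 15.0, whose edge was 255 bp from the WT promoter site. This is the *Prf1* sequence shown above, whose AP-1 match lies 116 bp from the summit.

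The rest of the *Prf1* window held 3 shared sites and 3 in 1 list alone. In WT alone there were a site in intron 2 of *Prf1*, 3.45 kb downstream of the TSS (pileup 51, percentile 23.7), and one 46.3 kb downstream in exon 11 of the neighbour *X99384* (pileup 43, percentile 43.7). In dKO alone a site lay 36.9 kb downstream, in intron 18 of *X99384* (pileup 25, percentile 21.5), with its edge 1421 bp from a shared site. The 3 shared sites away from the promoter, 21.8 kb upstream and 8.61 and 38.4 kb downstream, ranked at percentiles 69.3, 82.7 and 91.6 in WT and 83.5, 94.4 and 93.9 in dKO. All 3 ranked somewhat higher in dKO, by less than 20 points.

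*Gzmb*, encoding granzyme B, had the widest shift of all 30 shared granule sites, and it was at the promoter. The WT summit 132 bp upstream of the TSS had a pileup of 25, near the lowest pileup of any WT site (21), and ranked at percentile 10.7. The dKO summit 150 bp upstream had a pileup of 52 and ranked at percentile 78.9. The difference of 68.2 points was exceeded by 0.141% of all 20626 shared WT sites. Only sites of low WT rank could rise so far, so this is not a share among sites that started alike. The depth-scaled pileup was 0.298 in WT and 0.835 in dKO, a ratio of 2.80 (1.71 to 4.72). In the sequence shown above, the AP-1 match lies 18 bp and the Runx match 42 bp from the dKO summit.

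Upstream of *Gzmb* both lists shared 3 further sites, and each list had 1 site of its own. The site 34.7 kb upstream was among the strongest of both lists, with a pileup of 108 at percentile 93.6 in WT and a pileup of 93 at percentile 97.5 in dKO. Close to it, 34.0 kb upstream, the WT list alone had a site with a pileup of 57 at percentile 51.1. The edge of this WT site was 487 bp from the dKO site of the strong pair, and its ATCAAAG match lies 16 bp from the summit. The dKO list alone had a weak site 31.1 kb upstream, with a pileup of 29 at percentile 17.9.

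The other shared sites near *Gzmb* ranked lower in dKO by less than 20 points. The site 22.3 kb upstream was at percentile 46.2 in WT against 33.9 in dKO, and the site 42.1 kb upstream at 42.3 against 40.9. *Gzmc* added only a shared site 30.5 kb downstream of its TSS, beyond the 3′ end of *Gzmf*, which was at percentile 80.2 in WT against 73.9 in dKO, with a depth-scaled pileup ratio of 0.946 (0.637 to 1.39). Of the 5 WT sites in the *Gzmb* and *Gzmc* windows other than the *Gzmb* promoter, 4 were shared and shifted by less than 20 points, and 1 was in WT alone.

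*Gzma*, encoding granzyme A, had 6 dKO sites, of which 5 were in dKO alone. The promoter site had its summit 53 bp downstream of the TSS in exon 1, with a pileup of 27 at percentile 20.6. Another summit lay 1069 bp upstream, with a pileup of 19 at percentile 1.19, close to the lowest pileup of any dKO site (16). The promoter site had a Runx match upstream of the TSS, 100 bp from its summit, and the weak site upstream of it had a Runx match within 100 bp of its summit.

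The more distant dKO sites around *Gzma* were stronger on one side. Downstream of the gene, sites 29.8 and 54.3 kb from the TSS lay in introns 5 and 2 of *Cdc20b*, with pileups of 26 and 39 at percentiles 27.9 and 52.2. The second of these was 286 bp upstream of the TSS of *Gpx8*, and so lies at the promoter of another gene. Upstream, a site 19.9 kb away had a pileup of 22 at percentile 16.8 and an AP-1 match. The fold enrichment of these 5 dKO sites ran from 4.07, next to the minimum of 4, to 8.70.

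The only *Gzma* site of the WT list was shared. It lay 13.2 kb downstream of the TSS, in intron 11 of *Cdc20b*, with a pileup of 27 at percentile 15.5 in WT and of 39 at percentile 43.9 in dKO. The ratio of depth-scaled pileup, dKO over WT, was 1.95 (1.16 to 3.31). The site held ATCAAAG within 100 bp of its summit in both lists. All *Gzma* sites of the dKO list therefore either had no WT counterpart or ranked higher than it.

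*Gzmk*, encoding granzyme K, had 2 dKO sites, and both were in dKO alone by the site criteria. The one in the gene body, 17.3 kb upstream of the main TSS, had a pileup of 21 at percentile 10.4. A WT peak did overlap it (chr13:113988156-113988404), with a pileup of 20 and a fold enrichment of 3.88, just under the minimum of 4, so at this position the lists differ by a threshold. The other site, 89.1 kb upstream of the main TSS, had a pileup of 30 at percentile 38.2 and no overlapping WT peak. It belongs to the window because an annotated transcript of *Gzmk* extends the gene body far upstream.

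*Gzmm*, encoding granzyme M, had 3 fewer dKO than WT sites, and most of the sites in its window were at promoters of other genes. The shared site 15.4 kb downstream, at the *Bsg* promoter, had a pileup of 140 at percentile 95.4 in WT and of 75 at percentile 92.7 in dKO. The shared site 6.97 kb upstream, at the *Cdc34* promoter, had pileups of 101 and 53 at percentiles 68.4 and 58.1. Their pileup ratios of 0.722 (0.538 to 0.963) and 0.708 (0.498 to 0.996) had intervals below 1 that include the median ratio over all shared sites (0.912), and their ranks moved by less than 20 points.

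A further site at the promoter of another gene moved the other way in rank. The site 19.9 kb upstream, at the promoter of *Gm16517*, ranked at percentile 37.9 in WT with a pileup of 54 and at 63.8 in dKO with a pileup of 47, but the interval of its pileup ratio of 1.17 (0.777 to 1.77) included 1. The shared site 39.4 kb upstream was at percentile 34.8 in WT against 19.7 in dKO.

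The 3 sites of the *Gzmm* window in WT alone were of middle rank. They lay 24.8 kb upstream, 353 bp from the *Madcam1* TSS, with a pileup of 46 at percentile 38.2, and 6.40 and 23.6 kb downstream, both with a pileup of 45 at percentile 50.9. The downstream site at 6.40 kb is the one nearest to the body of *Gzmm*, which ended before it.

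*Nkg7*, encoding the granule membrane protein, had 8 sites in each list, and all were shared. At the promoter the WT summit, 10 bp upstream of the TSS, had a pileup of 67 at percentile 34.1, and the dKO summit, 20 bp upstream, had a pileup of 79 at percentile 61.2. The depth-scaled ratio was 1.59 (1.13 to 2.24). Downstream of this short gene, 1.75 kb from the TSS, the pileup was 64 at percentile 20.7 in WT and 83 at percentile 54.3 in dKO, with a ratio of 1.75 (1.25 to 2.46). These neighbouring sites both ranked higher in dKO, by 27.1 and 33.6 points. The promoter site also held AGGTGTGA within 100 bp of its summit in both lists, in the transcribed part that is not shown.

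Not every *Nkg7* site moved in that direction. A site 13.9 kb upstream of the TSS had a pileup of 94 at percentile 89.6 in WT and of 49 at percentile 67.6 in dKO, a ratio of 0.703 (0.487 to 1.003). A weaker promoter site 614 bp upstream of the TSS in WT stayed low, with pileups of 44 and 39 at percentiles 7.74 and 10.03. The strongest site of the window, 6.99 kb downstream at the promoter of *Etfb*, had pileups of 158 and 125 at percentiles 94.7 and 98.0. The other 3, 15.7 to 29.5 kb downstream in *Etfb* and *Vsig10l*, ranked at percentiles 37.1 to 48.4 in WT and 40.9 to 62.2 in dKO. A further WT peak of the window missed the criteria, with a pileup of 39 and a fold enrichment of 3.61 (chr7:50698849-50699047).

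*Srgn*, encoding serglycin, had a strong site in its body in both genotypes. Other strong sites of the window lay at or in other genes. The main TSS of *Srgn* had no site within 1 kb. A site at another annotated TSS, 19.6 kb downstream of the main one, had a pileup of 82 at percentile 45.6 in WT and of 74 at percentile 54.3 in dKO. The strongest site, in intron 2 and 27.0 kb from the main TSS, had pileups of 155 and 108 at percentiles 98.0 and 96.5. Its pileup ratio of 0.939 (0.728 to 1.21) included 1.

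A pair of adjacent weak sites upstream of *Srgn*, in the body of the neighbour *2510003E04Rik*, ranked higher in dKO. At 26.5 kb upstream the pileup was 36 at percentile 18.4 in WT and 45 at percentile 58.4 in dKO, a ratio of 1.69 (1.06 to 2.69). Next to it, 26.3 kb upstream in WT, the pileups were 30 and 29 at percentiles 6.74 and 24.4. Between these and *Srgn*, 22.5 kb upstream in the same neighbour, the WT list alone had a site with a pileup of 54 at percentile 49.6. At the far end of the window the site at the *Supv3l1* promoter ranked higher in WT, at percentile 48.9 against 23.4, with pileups of 51 and 27 and a ratio of 0.714 (0.430 to 1.16). The other shared sites of *Srgn*, 16.3 kb upstream and 21.1 and 40.5 kb downstream in WT, moved by less than 5 points.

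**Figure D3:**
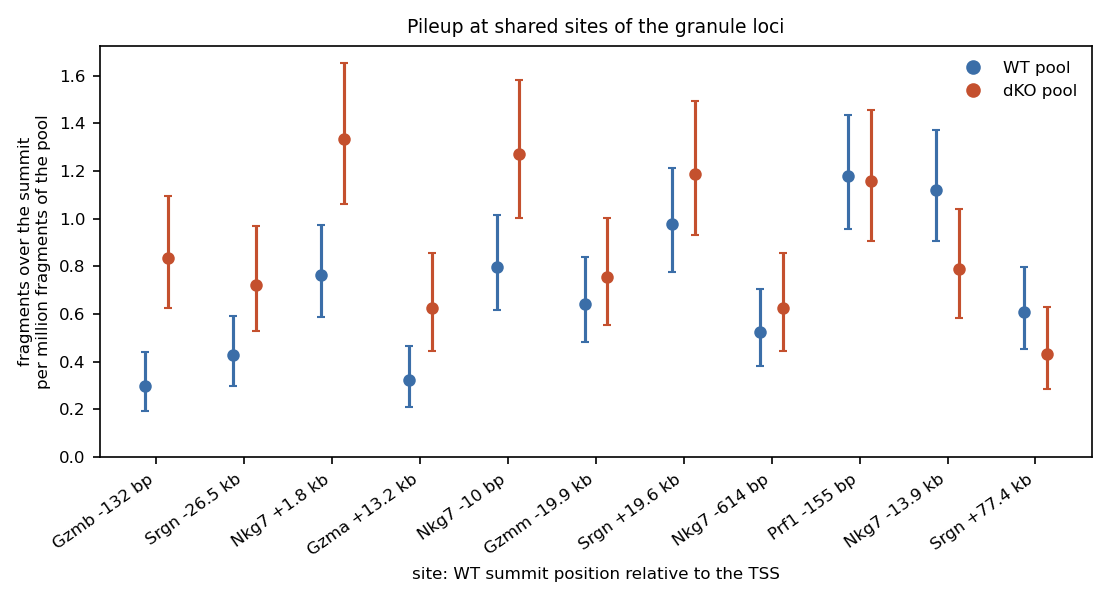
Depth-scaled pileup (fragments over the summit per 1000000 fragments of the pool) at shared granule sites that lay within 1 kb of a TSS of a granule gene or shifted by at least 20 points, ordered by that shift from dKO to WT. Points are the 2 pools and bars are exact 95% Poisson intervals, which cover counting error only. At the *Gzmb* promoter the intervals do not overlap, and at the *Prf1* promoter the points are at 1.18 in WT and 1.16 in dKO.

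Over the 30 shared WT sites, 19 ranked higher in dKO and 11 in WT, whereas 41.5% of all shared sites ranked higher in dKO. The median difference was 3.26 points at the granule loci and -2.48 over all shared sites. At least 20 points higher in dKO were 6 sites, or 20%, against 7.03% of all shared sites, and at least 20 points higher in WT were 2 sites, or 6.67%, against 13.6%. The 6 lay in the windows of *Gzmb*, *Nkg7* (2 sites), *Srgn*, *Gzma* and *Gzmm*. The *Srgn* and *Gzma* sites were in the bodies of other genes, and the *Gzmm* site was at a promoter of another gene. Among sites close to a listed gene the 6 include the promoters of *Gzmb* and *Nkg7* but not that of *Prf1*. All 6 ranked at percentile 37.9 or lower in WT. The shared granule sites had a median WT percentile of 47.3, against 60.9 for all shared sites, and a site of low rank has more room to rise. The comparisons with all shared sites were not matched for WT rank, and whether that rank set the differences was not tested.

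**Figure D4:**
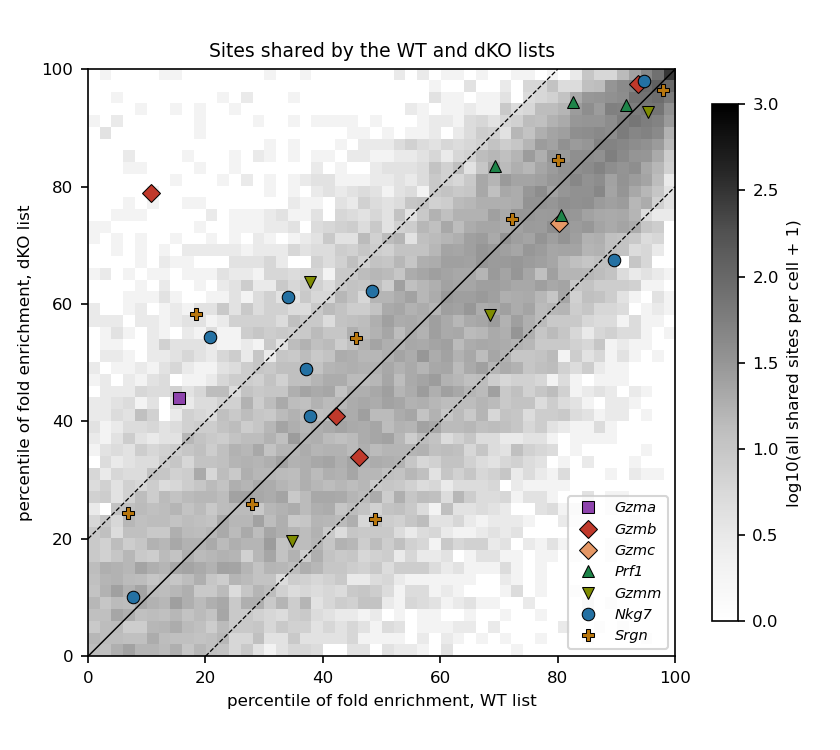
Percentile of fold enrichment in the WT list (horizontal axis) and in the dKO list (vertical axis) for the 30 shared granule sites, coloured by gene, over the density of all 20626 shared sites in grey (log10 scale). The solid line marks equal rank and the dashed lines a difference of 20 points. The *Gzmb* promoter lies farthest above the solid line, at 10.7 and 78.9.

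By depth-scaled pileup the *Gzmb* promoter again had the widest shift toward dKO, while the order of the other sites changed. The log2 ratio of dKO to WT had a median of -0.13 over all shared sites, and relative to that median the granule sites had a median of 0.20, with 25 of 30 above 0. The relative log2 ratio was 1.62 at the *Gzmb* promoter, 1.09 at the shared *Gzma* site, 0.94 at the *Nkg7* site 1.75 kb downstream, 0.89 at the *Srgn* site 26.5 kb upstream and 0.80 at the *Nkg7* promoter. In the *Gzmm* window it was 0.36 at the *Gm16517* promoter and -0.37 at the *Cdc34* promoter, and it was 0.10 at the *Prf1* promoter. Rank and pileup come from the same fragments, so these are not independent measures of a difference.

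Since 30 sites of each list were shared, position and GC content could differ mainly through the few sites in 1 list alone. Of the WT sites, 5 lay within 1 kb of a TSS of a granule gene, 7 within 1 kb of a TSS of another gene, 3 elsewhere in the body of a granule gene, 10 in the body of another gene and 12 between genes. For dKO the numbers were 7, 7, 3, 10 and 13. Of these, the sites in 1 list alone numbered 0, 1, 1, 2 and 3 for WT and 2, 1, 1, 2 and 4 for dKO. The median GC content within 100 bp of the summit was 52.2% for the WT and 51.5% for the dKO granule sites, against 53.2% for all sites of either list. Sites in dKO alone were weak, with a median percentile of 19.2, close to 18.0 for all dKO sites without a counterpart. Sites in WT alone at the granule loci had a median percentile of 49.6, against 24.3 for all WT sites without a counterpart.

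Few granule sites held the motifs searched. ATCAAAG occurred within 100 bp of the summit in 3 of 37 WT sites and 2 of 40 dKO sites, against 3.81% of all WT and 2.42% of all dKO sites. The 3 WT sites were those 13.2 kb downstream of *Gzma* and 22.3 and 34.0 kb upstream of *Gzmb*, and the first 2 of these were shared. TGANTCA was in 3 WT and 6 dKO sites, against 6.09% and 6.25% of all sites. TGTGGTT was in 1 and 2 sites (9.67% and 10.6% of all), AGGTGTGA in 1 and 1 (0.913% and 0.924%) and CGGAAGT in 1 and 2 (6.78% and 7.27%). The Runx matches shown for the *Gzma* and *Nkg7* promoters and the AP-1 match upstream of *Prf1* reach beyond 100 bp from the summit and are not among these counts. A match shows only that these letters were present, and with so few sites the shares are imprecise, as for TGANTCA in dKO, which was 15.0% (7.06 to 29.1).

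A list of 20 genes, called machinery genes here, was also read. It held genes that make and release granules, but also genes for receptors, signalling, granzyme inhibition and target killing in cytotoxic cells. Of the 20, 19 were found in the annotation under the names used. A promoter site was in both lists for 13, in WT alone for 1, in dKO alone for 0 and in neither list for 5. Over all protein-coding genes these shares were 38.4%, 3.7%, 0.679% and 57.3%. The one in WT alone was *Serpinb6b*, a serpin gene, with a weak site at percentile 3.91. Of the 13, 5 ranked higher in dKO, against 3050 of 8584 over all genes with a promoter site in both lists. The median difference was -4.14 points, against -3.38 over all those genes. Only *Rab27a*, which encodes a small GTPase needed for granule release, and *Ctsw*, which encodes the cathepsin W of cytotoxic cells, differed by at least 20 points, from percentile 46.3 in WT to 79.8 in dKO and from 57.8 to 81.0. No promoter of the list was at least 20 points higher in WT. Over all genes with a promoter site in both lists, 2.11% were at least 20 points higher in dKO and 12.4% in WT.

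The promoters of marker genes were read in the same way. Of 5 CD8 T cell genes, *Cd8a*, *Cd8b1* and *Cd3e* had a promoter site in both lists, *Cd3d* in WT alone and *Thy1* in neither. *Ccr7* and *Il7r*, genes of naïve T cells, had one in both lists, and each ranked higher in WT, *Ccr7* at percentile 70.2 against 64.4 and *Il7r* at 29.998 against 17.4. None of the 4 NK cell, 4 B cell, 4 monocyte and neutrophil and 3 mast cell genes had a promoter site in either list. The NK cell genes were *Ncr1*, *Klrb1c*, *Klra8* and *Eomes*.

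Each of the 77 granule sites was searched for near-identical copies elsewhere in the genome, since granzyme genes are a family of related sequences. None had a copy, counted as a stretch of at least 80% of the 201 bp around the summit at 90% identity or more.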

How the data were processed

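DNase-seq was made from 3 WT and 2 dKO replicates of naïve CD8+ T cells. Per the methods, the authors aligned reads to mm9 with Bowtie2 2.2.5, kept uniquely mapped reads, pooled the replicates of each genotype and called peaks with MACS2 2.1.1. Per the file headers no control library was used. In the deposited lists the pileup is an unscaled signal in fragments at the summit, and the fold enrichment is its ratio to the background that MACS2 estimated. That background was not always a nearby one. As implied by the deposited values, it was at a single lowest value for 21.1% of WT sites (5.38) and 30.2% of dKO sites (4.22). The *Gzmb* promoter site was at this value in WT, and in dKO its background was 4.35. The deposited -log10 p and -log10 q are the authors' MACS2 test of the summit and its adjusted form. The file headers give 83923734 WT and 62242963 dKO fragments kept, and list 2 alignment files per pool, named as a file and its sorted copy, with total fragments at 2 times those kept. They do not say which replicates entered a pool.

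The GENCODE annotation of mm9 gave genes and TSSs. The TSS was that of the first-numbered transcript, or of the longest one where none had that number. Percentiles of fold enrichment were taken within each list, and a missing site was given percentile 0. Ratios of depth-scaled pileup have exact conditional binomial intervals, and shares have Wilson intervals, both of 95% and for counting error only. Motifs were searched within 100 bp of the summit, and copies with blastn 2.17.0. Overlap, percentile and motif steps were tested on simulated data. Python 3.11.15, pandas 2.3.3, scipy 1.17.1, pysam 0.24.0 and samtools 1.23.1 were used. No p-value between genotypes was computed.

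Genes and gene lists were chosen with earlier results of these data known. Values are given in full for sites within 1 kb of a TSS of the 8 genes, sites in 1 list alone and shared sites that differed by at least 20 percentile points, and machinery genes were named where their promoter site was in 1 list alone or differed by 20 points. Other shared sites, the *Ccr7*, *Il7r* and *Klrd1* values and the *Bsg*, *Cdc34*, *Etfb* and *Vps26a* promoters were added after their values were seen. A marker gene is not reported here. Alternatives were other site criteria, overlaps, windows, ranks, TSSs and motif widths.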

Additional observations from a re-analysis of the deposited data

How the results depend on the processing

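No paired analysis was possible because the replicates of each genotype were pooled before peaks were called, and for the same reason leaving out single replicates could not be run. Of 130 values recomputed under alternatives, 90 changed little (within 1.5 times for counts, or within 5 percentile points), 39 moved further and 1 reversed: by percentile of pileup the *Prf1* promoter ranked 0.637 points higher in dKO. With a minimum fold enrichment of 8, 14 WT sites were shared, 8 of them ranked higher in dKO, and promoter sites were in both lists for 1 gene and in dKO alone for 2, while the *Gzma* promoter site was lost. Promoter sites in dKO alone also numbered 2 with q under 1e-10 and with the 20000 peaks of highest -log10 p of each list, where 9 machinery promoters ranked higher in dKO. Within 10 kb of the genes, 2 sites were in WT alone, 4 in dKO alone and 14 WT sites were shared, and within 100 kb 47 were shared. Without the *Gzma* and *Gzmk* windows, an alternative added after seeing the data, 3 sites were in dKO alone. Within 50 bp of the summit, WT sites with ATCAAAG numbered 1, with AGGTGTGA 0 and with CGGAAGT 0, and dKO sites with ATCAAAG 0, with TGTGGTT 1, with AGGTGTGA 0 and with TGANTCA 3. The higher rank of the *Gzmb* promoter in dKO held under every alternative run for it where both lists kept the site, as did that of the *Nkg7* promoter. The lowest pileup of a site was 16 in the dKO pool and 21 in the WT pool, and whether depth set which weak sites were called was not tested.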
